A study of Homo sapiens with 30 samples.

Results

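The comparison set 4 libraries of K562 cells labelled with TSA against 4 libraries without it, here called untreated, 8 of the 30 CUT&Tag libraries of the series, all made with antibodies to the histone mark H3K27ac. The members were every library labelled with TSA and its untreated partner of the same antibody and dilution, with SDS extraction and 15 PCR cycles in all 8. The pairs were Abcam-ab177178 at 1/100, Abcam-ab4729 at 1/100, and Diagenode C15410196 at 1/100 and at 1/50, each TSA library being set against its own untreated partner. K562 is an established human leukaemia line with erythroid features, and each experiment used 500000 cells. The sources used here do not give the dose and duration of TSA, or whether it was given to living cells or added to buffers during the procedure. With a single library per condition there is no replicate error, and a pair is the unit of every test.

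Trichostatin A (TSA) inhibits class I and class II histone deacetylases, the enzymes that remove acetyl groups from histone tails. Acetylation of lysine 27 of histone H3 is written mainly by p300 and CBP and marks active promoters and enhancers. The same residue carries H3K27me3 at genes silenced by Polycomb, so a single histone tail cannot carry both. In CUT&Tag an antibody brings a transposase to the mark, and DNA is cut and tagged around it in unfixed or lightly fixed nuclei. Deacetylase inhibitors are added in such protocols to keep acetyl groups from being lost during the procedure.

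The deposited SEACR lists give for each peak a total signal, which is coverage summed over its bases, and a maximum signal, which is the highest coverage in it. Both were whole numbers and were not scaled between libraries, so the number of stacked reads or fragments behind each peak can be read directly. On chromosomes 1 to 22 and X the TSA lists held 4462 to 22808 peaks and the untreated lists 7834 to 16623. The sources used here give no read totals. Signal summed over the whole list on these chromosomes, being coverage summed over bases, is given in Mb and was lower with TSA in every pair. It was 24.6 Mb with TSA and 99.4 Mb untreated for ab177178, and 100.6 Mb with TSA and 359.1 Mb untreated for ab4729. For Diagenode it was 22.1 Mb with TSA and 51.4 Mb untreated at 1/100, and 33.0 Mb with TSA and 219.2 Mb untreated at 1/50. Mitochondrial sequence took 2.88% to 33.2% of peak signal in TSA lists and 1.47% to 35.6% in untreated lists, and its part in the results was not tested.

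TSA peaks were lower, and the weakest peak kept by the caller was weaker, in most pairs. The lowest total signal of a peak was 1078 with TSA and 2714 untreated for ab177178, and 1596 with TSA and 8528 untreated for ab4729. For Diagenode it was 2211 with TSA and 2442 untreated at 1/100, and 1820 with TSA and 5455 untreated at 1/50. Thus in 4 of 4 pairs the TSA list reached down to a lower signal than its partner. The median maximum signal was 5 with TSA and 7 untreated for ab177178, and 7 with TSA and 19 untreated for ab4729. It was 7 in both Diagenode lists at 1/100, and 6 with TSA and 14 untreated at 1/50. The middle TSA peak thus rested on a stack of 5 to 7, against 7 to 19 in untreated lists. Such low stacks leave wide counting error in each peak's height and in whether it was called, and the intervals given below, which count peaks, do not include it.

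To remove the effect of how many peaks were called, each pair was cut to an equal number of its strongest peaks by total signal. The lists compared held 7056 peaks for ab177178, 13394 for ab4729, 4462 for Diagenode at 1/100 and 6301 for Diagenode at 1/50. For ab177178 and both Diagenode pairs the whole TSA list was kept, and 42.4%, 57.0% and 53.2% of the untreated list. For ab4729, where TSA gave the longer list, 58.7% of the TSA list and all of the untreated list were kept. Total signal grows with peak width, so the cut favoured wide peaks in the list that was shortened. Over full lists median untreated width was 1393 bp for ab177178, and 1339.5 bp and 2256 bp for Diagenode at 1/100 and 1/50. For ab4729 the full TSA list had a median of 922 bp. Each is below its value at equal list size, given next.

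At equal list size TSA peaks were narrower and covered less of the genome in 4 of 4 pairs. These pairs were not matched in summed signal, which was lower with TSA in each, and its part in width and covered length was not tested. Median peak width was 753 bp with TSA and 1912.5 bp untreated for ab177178, and 1126 bp with TSA and 2736.5 bp untreated for ab4729. For Diagenode it was 1145 bp with TSA and 1646 bp untreated at 1/100, and 1075 bp with TSA and 3014 bp untreated at 1/50. All 4 TSA medians lay below all 4 untreated ones. Covered length was 6.33 Mb with TSA and 15.8 Mb untreated for ab177178, and 18.1 Mb with TSA and 43.3 Mb untreated for ab4729. For Diagenode it was 5.79 Mb with TSA and 8.30 Mb untreated at 1/100, and 8.12 Mb with TSA and 22.01 Mb untreated at 1/50. On the log2 scale the TSA width over the untreated width averaged -1.16 ± 0.43 (SD, n = 4 pairs; exact two-sided sign-flip permutation p of 1 in 8, adjusted 0.25 over 10 tests). The same ratio of covered length averaged -1.14 ± 0.42 (SD, n = 4 pairs; exact permutation p of 1 in 8, adjusted 0.25). A p of 1 in 8 is the lowest that 4 pairs allow, so no test over pairs could reach 0.05.

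**Figure D1:**
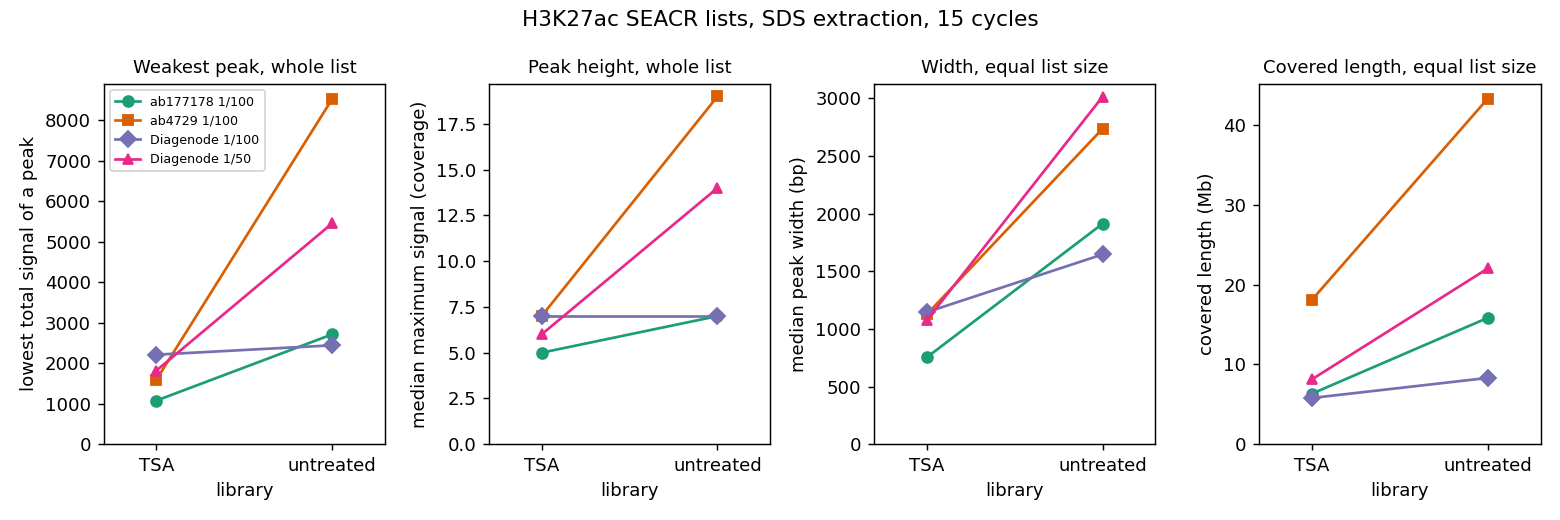
Each line joins the TSA library (left) to its untreated partner (right) for 1 antibody and dilution, for the lowest total signal, the median maximum signal (coverage), the median peak width in bp and the covered length in Mb. Width and covered length are at equal list size, and every line except the level one of maximum signal for Diagenode at 1/100 (7 in both) is lower at the TSA end.

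TSA peaks were also flatter, in the same pairs unmatched in summed signal, and the part of that signal in flatness was not tested. The maximum signal of a peak divided by its mean signal per base does not depend on the scale of a list, and here it is called peakedness. Its median was 2.03 with TSA and 2.48 untreated for ab177178, and 2.35 with TSA and 2.79 untreated for ab4729. For Diagenode it was 2.247 with TSA and 2.41 untreated at 1/100, and 2.16 with TSA and 2.74 untreated at 1/50. Every TSA median lay below every untreated one. The mean log2 ratio was -0.25 ± 0.10 (SD, n = 4 pairs; exact permutation p of 1 in 8, adjusted 0.25). Over full lists the ratio for Diagenode at 1/100 was only -0.024.

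These differences in width, length and shape were not seen against all untreated lists. For 3 pairs the series holds 6 more untreated SDS lists of the same antibody and dilution, at 11 and 13 cycles, called by the authors after reads were downsampled to a common depth. Their median maximum signals were 5 to 7, as in the TSA lists, and their median widths over the whole list were 919 to 1231 bp. Cycle number and depth cannot be told apart in this setting. With the TSA list and the 11-cycle list cut to equal size, median width was 753 bp with TSA and 1046 bp untreated for ab177178. It was 1596 bp with TSA and 1208.5 bp untreated for ab4729, and 1313 bp with TSA and 988 bp untreated for Diagenode at 1/50. Against the 13-cycle lists it was 753 bp with TSA and 1296.5 bp untreated for ab177178, 1542 bp with TSA and 999 bp untreated for ab4729, and 1075 bp with TSA and 1091 bp untreated for Diagenode. TSA peaks of ab177178 were thus narrower against all 3 untreated lists, whereas those of ab4729 were narrower against the 15-cycle list and wider against the other two. Covered length against the 11-cycle lists was 6.33 Mb with TSA and 8.56 Mb untreated for ab177178, 10.7 Mb with TSA and 7.84 Mb untreated for ab4729, and 6.17 Mb with TSA and 4.45 Mb untreated for Diagenode. Against the 13-cycle lists the mean log2 ratio was -0.06 for width and -0.0014 for covered length, close to none. That of peakedness turned to 0.10 against the 11-cycle lists and 0.04 against the 13-cycle lists (n = 3 pairs).

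Peaks lay closer together with TSA in 3 of 4 pairs. The share of peaks with another peak of the same list within about 13 kb was 53.0% with TSA and 37.4% untreated for ab4729. For Diagenode it was 37.0% with TSA and 25.7% untreated at 1/100, and 45.7% with TSA and 29.8% untreated at 1/50. For ab177178 it was lower, 46.5% with TSA and 51.6% untreated. The mean difference was 9.43 ± 9.96 points (SD, n = 4 pairs; exact permutation p = 0.25, adjusted 0.312). Against the 11-cycle lists the difference was 0.0992 points for ab177178, 9.62 for ab4729 and 4.72 for Diagenode at 1/50, and against the 13-cycle lists 5.34, 4.16 and 8.03 points. The closer spacing with TSA was therefore present against all 3 untreated lists for ab4729 and Diagenode at 1/50. The mean difference from the 15-cycle lists was 1.99 points once peaks within 1 kb were merged, with ab177178 at -12.2, and 3.87 points with full lists, with ab177178 at -14.6 and Diagenode at 1/100 at 1.22.

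Peak signal was more concentrated in the strongest peaks with TSA in 3 of 4 pairs. The strongest 10% of peaks held 54.9% of list signal with TSA and 32.7% untreated for ab177178, and 43.2% with TSA and 35.2% untreated for ab4729. For Diagenode the values were 43.8% with TSA and 38.4% untreated at 1/50, and 36.5% with TSA and 41.2% untreated at 1/100. The mean difference was 7.68 ± 11.1 points (SD, n = 4 pairs; exact permutation p = 0.25, adjusted 0.312). In the 3 pairs with downsampled lists it was positive against each of the 6, from 2.27 points for Diagenode at 11 cycles to 28.0 points for ab177178 at 13 cycles.

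**Figure D2:**
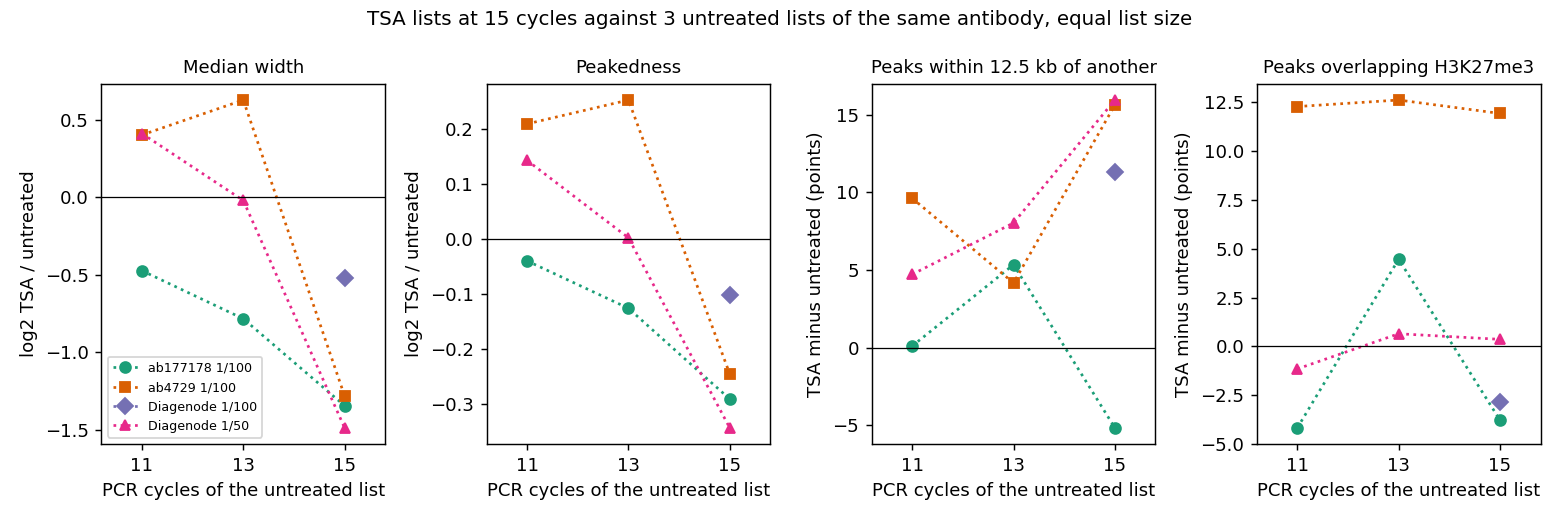
TSA lists at 15 cycles set against the untreated list of the same antibody at 11, 13 or 15 cycles (horizontal axis), at equal list size; each point is 1 pair, and values above 0 are higher with TSA. Width and peakedness (log2 ratios) are below 0 in all pairs at 15 cycles alone, while the H3K27me3 difference of ab4729 is 11.9 to 12.6 points at every cycle number.

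Next, the positions of peaks were compared. At equal list size the untreated list contained 42.5% of TSA peaks for ab177178, 64.7% for ab4729, 62.2% for Diagenode at 1/100 and 79.8% for Diagenode at 1/50. In the other direction the TSA list contained 37.0%, 52.1%, 57.8% and 64.5% of untreated peaks for the same pairs. Counted as merged regions of the 8 lists, the regions of ab177178 were 33.4% TSA-only and 40.4% untreated-only (9520 regions in the pair). For ab4729 they were 25% TSA-only and 35.9% untreated-only (17715 regions). For Diagenode they were 25.4% TSA-only and 30.2% untreated-only at 1/100 (5492 regions), and 16.2% TSA-only and 29.1% untreated-only at 1/50 (7263 regions).

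Overlap was higher for stronger peaks in both directions. When each equal-size list was divided by total signal into 5 groups, the untreated list contained 66.9% of the strongest and 28.2% of the weakest TSA peaks of ab177178. For ab4729 these shares were 82.9% (Wilson 95% interval 81.5 to 84.3) and 46.2% (44.3 to 48.0). For Diagenode they were 90.7% and 39.6% at 1/100, and 98.6% and 59.0% at 1/50. Of the strongest untreated peaks the TSA list held 62.2% for ab177178, 86.7% for ab4729, 87.9% for Diagenode at 1/100 and 94.4% for Diagenode at 1/50, and of the weakest 23.03%, 26.1%, 36.1% and 37.2%. The pair of ab177178 had the lowest share in every group, in both directions. Its strongest TSA group had a median maximum signal of 7, against 13 in its strongest untreated group.

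**Figure D3:**
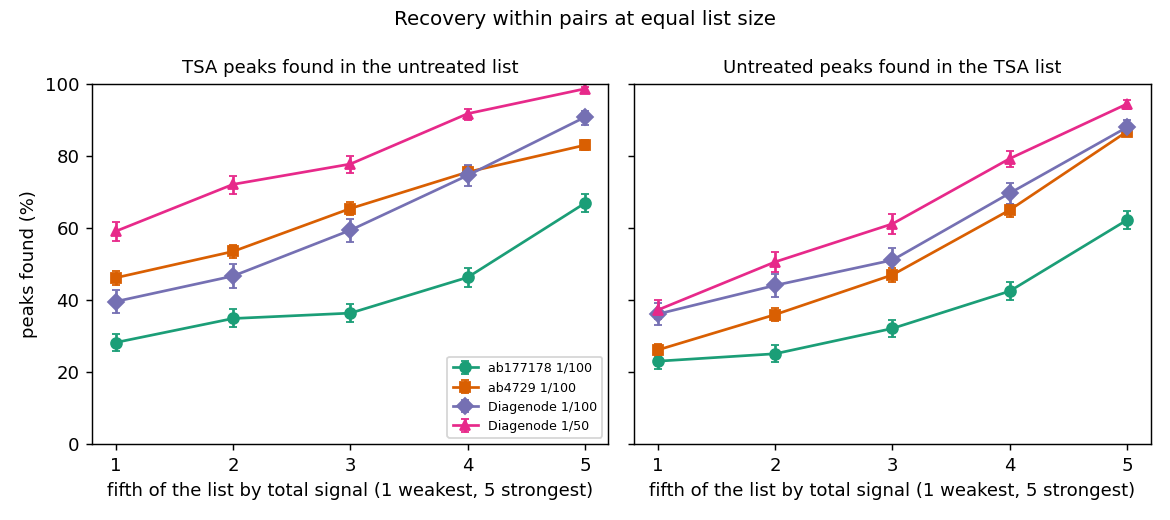
Percent of TSA peaks found in the untreated list (left) and of untreated peaks found in the TSA list (right) in 5 groups of equal size by total signal, from weakest (1) to strongest (5); bars are 95% Wilson intervals over peaks. All 8 lines are highest at group 5, between 62.2% and 98.6%.

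Where both lists had a peak, the TSA peak lay mostly inside the untreated one. Wholly inside were 70.2% of the shared TSA peaks of ab177178, 86.0% of those of ab4729, 49.2% for Diagenode at 1/100 and 91.4% for Diagenode at 1/50. Shared untreated peaks were covered over a median of 46.0%, 46.7%, 66.3% and 43.2% of their width. The point of highest coverage in the untreated peak fell within a TSA peak in 73.6%, 88.0%, 87.9% and 84.1% of cases. Of the shared untreated peaks, 13.7% of ab177178, 17.4% of ab4729, 6.91% of Diagenode at 1/100 and 18.2% of Diagenode at 1/50 met 2 or more TSA peaks. Most shared untreated peaks thus had their point of highest coverage within a TSA peak, with parts of the untreated peak left outside it. The summits of TSA peaks were not compared, and the part of the narrower TSA width in these shares was not tested.

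Whether a TSA list differed from its partner more than another untreated list did was asked in the 3 pairs with downsampled lists, all cut to 1 size per pair. Of 7056 untreated ab177178 peaks, 37.0% were in the TSA list, against 44.1% in the 11-cycle and 46.2% in the 13-cycle untreated list. Of 5780 untreated ab4729 peaks, 50.8% were in the TSA list, against 62.2% at 11 and 58.8% at 13 cycles. Of 4008 untreated Diagenode 1/50 peaks, 62.4% were in the TSA list, against 54.4% at 11 and 60.7% at 13 cycles. The TSA list therefore recovered fewer peaks than both untreated lists for ab177178 and ab4729 and more than both for Diagenode. The ab4729 direction turned with 50% overlap, where the TSA list held 24.0%, against 16.1% at 11 and 9.46% at 13 cycles, and with full lists, where it held 65.8%, against 36.4% and 36.9%. For Diagenode the full TSA list held 41.6%, against 26.97% at 11 and 46.0% at 13 cycles. The mean difference was -4.37 ± 7.94 points (SD, n = 3 pairs; exact permutation p = 0.5, adjusted 0.556). With 3 pairs no p below 0.25 can be had.

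Peaks found with TSA alone were weak, and outside ab4729 many of them were present in other untreated lists. TSA-only peaks numbered 4056 for ab177178, 4731 for ab4729, 1688 for Diagenode at 1/100 and 1272 for Diagenode at 1/50. Their median maximum signal was 4, 7, 6 and 5, against 5, 9, 7 and 7 in TSA peaks shared with the untreated list. The full untreated SEACR list held 30.2% of the TSA-only peaks of ab177178, 42.5% of those of Diagenode at 1/100 and 68.3% at 1/50. For ab4729 this share is 0 by construction, since its whole untreated list was already in use. The MACS2 list of the same untreated library held 14.4% for ab177178, 21.9% for ab4729, 26.2% for Diagenode at 1/100 and 76.1% for Diagenode at 1/50. With all untreated lists of the same antibody, dilution and extraction joined, 60.3%, 24.1%, 46.9% and 84.7% of the TSA-only peaks were found. Diagenode at 1/100 has no downsampled lists, so its share rests on fewer lists. That left 1609, 3590, 896 and 194 TSA peaks with no counterpart in those lists of the same antibody. With lists cut within pairs, untreated lists of other antibodies held many TSA-only peaks of ab177178 and Diagenode but few of ab4729, as given below for each pair. With every list cut to the size of the smallest, ab4729 and Diagenode at 1/50 were close, at 22.6% and 21.6%.

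Distances were measured to the nearest peak of the equal-size list of the other arm, so weaker peaks of its full list are not counted. The median distance from a TSA-only peak to the nearest peak of the cut untreated list was 56.9 kb for ab177178, 37.2 kb for ab4729, 45.8 kb for Diagenode at 1/100 and 49.7 kb for Diagenode at 1/50. Within 10 kb lay 24.4%, 27.2%, 26.5% and 23.3% of them. Untreated-only peaks lay a median of 31.3, 51.2, 96.7 and 76.2 kb from the nearest TSA peak, with 27.6%, 18.6%, 17.5% and 17.3% within 10 kb.

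Overlap with H3K27me3, taken from the CST9733 list at 15 cycles, differed between antibodies. That list held 106997 peaks covering 149.2 Mb, so some overlap would arise by chance, and more of it for wider peaks. The chance share was not computed, so the shares are compared only with each other. With ab4729, 18.5% of TSA peaks and 6.53% of untreated peaks overlapped an H3K27me3 peak. With ab177178 the shares were 11.1% with TSA and 14.9% untreated. With Diagenode they were 9.12% with TSA and 11.9% untreated at 1/100, and 7.999% with TSA and 7.63% untreated at 1/50. The share was thus higher with TSA in 2 pairs and lower in the other two, and the mean difference was 1.43 ± 7.22 points (SD, n = 4 pairs; exact permutation p = 0.875, adjusted 0.875). Without ab4729 the mean was -2.08 points. Against the 13-cycle untreated lists the ab177178 difference turned to 4.46 points, with 11.1% with TSA and 6.65% untreated, and the mean over 3 pairs was 5.91 points. Against the 11-cycle lists the ab177178 difference was -4.17 points.

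Within the ab4729 pair the H3K27me3 overlap lay in the TSA-only peaks. Of the 4731 TSA-only peaks, 39.6% overlapped H3K27me3 (Wilson 95% interval 38.2 to 41.0). Of the TSA peaks shared with the untreated list 6.91% did (6.40 to 7.47), of untreated-only peaks 4.48% (4.00 to 5.01), and of shared untreated peaks 8.40% (7.78 to 9.08). The 3590 TSA peaks found in no untreated ab4729 list overlapped it in 47.2% of cases, and the corresponding share was 11.4% of 1609 for ab177178, 3.91% of 896 for Diagenode at 1/100 and 17.0% of 194 at 1/50. In the other pairs all TSA-only peaks together overlapped H3K27me3 in 9.89% of cases for ab177178, 3.50% for Diagenode at 1/100 and 7.47% for Diagenode at 1/50, each below the shared TSA peaks of its pair, at 12.8%, 12.55% and 8.13%. The 1873 TSA-only ab4729 peaks on H3K27me3 had a median maximum signal of 7, as had those off it, and median widths of 1147 and 988 bp. In 88.4% of them H3K27me3 covered 50% of the peak or more. They met 1666 of the 106997 H3K27me3 peaks, whose median width was 1860.5 bp, against 958 bp over that whole list. Their median rank percentile by total signal, which grows with width, was 88.0, and 46.9% of them were among the strongest 10% of that list.

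**Figure D4:**
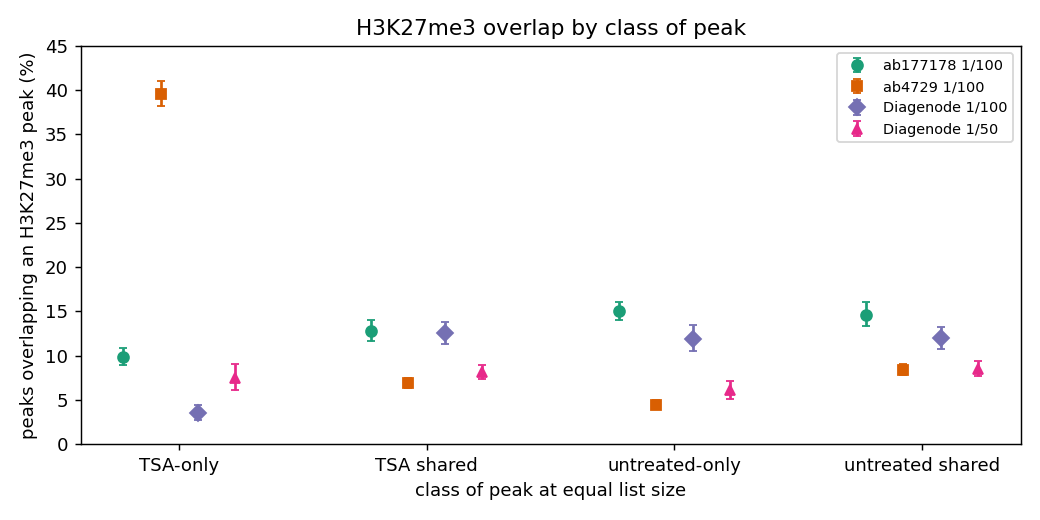
Percent of peaks overlapping an H3K27me3 peak in each class of peak at equal list size, for 4 antibody and dilution pairs; bars are 95% Wilson intervals over peaks. The TSA-only peaks of ab4729 stand at 39.6% and every other point is between 3.50% and 15.0%.

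The ab4729 difference held under each way of matching the lists. It was 13.1 points with every list cut to the 4462 peaks of the smallest list, and 9.65 points when peaks were ranked by maximum signal. It was 12.6 points at equal covered length, where the TSA list is the one with more peaks. Against untreated ab4729 at 11 and 13 cycles it was 12.3 and 12.6 points. The ab4729 TSA list had 10.3% of its peak signal on sequences other than chromosomes 1 to 22, X and the mitochondrion, against 1.53% in the untreated list, and the part of this in the result was not tested. H3K27me3 was measured in untreated cells by a single library at 15 cycles.

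Among the strongest TSA-only ab4729 peaks on H3K27me3, some lay where other libraries also had peaks. Neither here nor for the regions named below was any place left out for repeated sequence, and signal was not corrected for copy number. On chromosome 10 from 39135201 to 39142390 the maximum signal with TSA was 21 for ab177178, 80 for ab4729, 8 for Diagenode at 1/100 and 24 at 1/50, against 38 for ab177178, no peak for ab4729, and 20 and 50 for Diagenode in untreated lists. On chromosome 9 from 133787880 to 133802583 it was 20 with TSA for ab4729, with no peak in the other TSA lists, and 23 untreated for ab177178, with no peak in the other untreated lists. The H3K27me3 peaks at these places had maximum signals of 6 and 96.

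Peaks of a single TSA list were looked for in lists of the other antibodies. TSA-only ab177178 peaks were found in the other antibodies' TSA lists in a mean of 38.2% of cases and in their untreated partners in 54.4%. TSA-only ab4729 peaks were found in 4.76% and 8.10%, those of Diagenode at 1/100 in 52.6% and 67.2%, and those of Diagenode at 1/50 in 36.8% and 50.6%, TSA lists being given before untreated ones. Few TSA-only ab4729 peaks therefore recurred with another antibody in either arm. With lists cut within pairs, the highest share for TSA-only ab4729 peaks was 18.1%, in untreated ab177178, and with TSA it was 9.004% for that antibody. The mean difference with lists cut within pairs, TSA lists minus untreated lists, was -11.9 ± 5.82 points (SD, n = 4 pairs; exact permutation p of 1 in 8, adjusted 0.25). Of the 10 lookups behind this mean, 2 were higher in the TSA list and 8 in the untreated list. The 2 were Diagenode peaks in ab177178 lists, 44.3% with TSA and 40.3% untreated for 1/100, and 30.3% with TSA and 21.9% untreated for 1/50. The ab4729 lists, of 18.1 Mb with TSA and 43.3 Mb untreated, gave the largest differences, -36.0 to -27.0 points. With every list cut to the smallest size, the mean was -6.51 points and Diagenode at 1/50 was at 2.96. The mean difference turned to 16.1 points when pairs were cut to equal covered length, with all 4 pairs above 0. Its sign thus depends on how lists are matched. Untreated-only peaks recurred in other TSA lists in 38.2% of cases and in other untreated lists in 46.1% as means over pairs. Untreated lists minus TSA lists the difference was 7.96 ± 6.57 points (SD, n = 4 pairs; exact permutation p of 1 in 8, adjusted 0.25). It turned to -25.1 points at equal covered length.

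Across all 8 equal-size lists there were 19817 merged regions, of which 50.2% were in both arms, 22.3% in TSA lists alone and 27.6% in untreated lists alone. Most regions of one arm were in a single list, 4092 with TSA and 4473 untreated. In all 8 lists were 1162 regions, 5.86% of the total, with a median width of 5497 bp. Regions in all 4 TSA lists and no untreated list numbered 3 (0.0151% of all regions), and the opposite pattern, in the 4 untreated lists alone, was held by 23 (0.116%). Another 34 were in 3 TSA lists and no untreated list, and 143 in 3 untreated lists and no TSA list. The 34 had a median width of 1239.5 bp and 35.3% of them (12 regions) overlapped H3K27me3, against 31.6% of regions in 1 TSA list alone. That 31.6% is not typical of every antibody. TSA-only peaks on H3K27me3 numbered 1873 for ab4729, 401 for ab177178, and 59 and 95 for Diagenode at 1/100 and 1/50. Which TSA lists held each of the 34 is not given here. The 143 had a median of 3465 bp and 2.80% did, against 7.24% of regions in 1 untreated list alone.

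**Figure D5:**
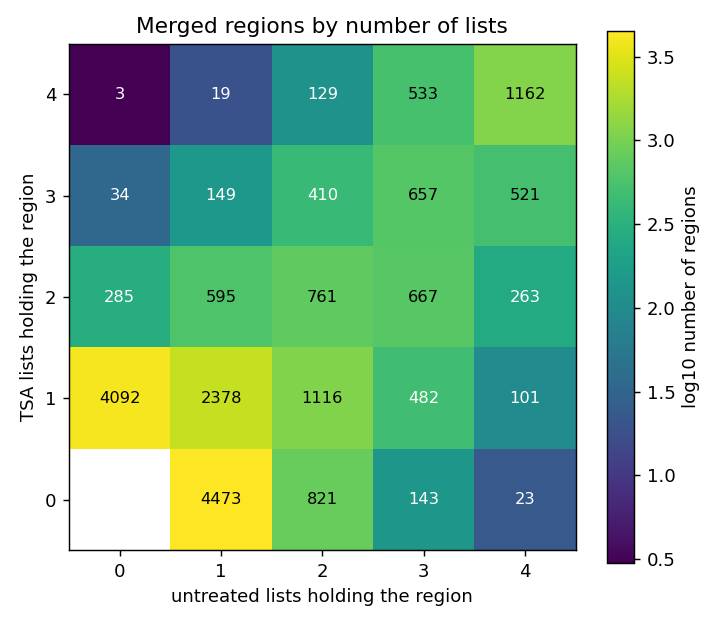
Number of merged regions by how many TSA lists (vertical axis) and how many untreated lists (horizontal axis) hold them at equal list size; colour is the log10 number. The corner cells show 3 regions in 4 TSA lists alone, 23 in 4 untreated lists alone and 1162 in all 8.

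Each of the 3 regions of all TSA lists had a peak in at least 1 full untreated list. On chromosome 1 from 195868822 to 195869712 the maximum signal with TSA was 5 for ab177178, 31 for ab4729, 13 for Diagenode at 1/100 and 10 at 1/50, against 25 in the full untreated list of Diagenode at 1/50 and no peak in the other 3 untreated lists. On chromosome 21 from 10826687 to 10829300 it was 3, 18, 4 and 5 with TSA in the same order, against 11 untreated for Diagenode at 1/50 and no peak in the rest. On chromosome 2 from 220109392 to 220111109 it was 3, 8, 5 and 4 with TSA, against 9 for ab177178, 3 for Diagenode at 1/100 and 11 at 1/50 untreated, and no peak for ab4729. Each of the 3 was also in at least 1 of the 6 downsampled untreated lists. None overlapped H3K27me3.

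The 23 regions of all untreated lists were wider, with a median of 3315 bp, and 1 of them overlapped H3K27me3. The strongest by mean rank was on chromosome 16 from 28676679 to 28681378. Its maximum signal was 10 with TSA for ab4729, below the equal-size limit, with no peak in the other TSA lists, against 20 for ab177178, 38 for ab4729, 8 for Diagenode at 1/100 and 19 at 1/50 untreated. Next came chromosome 22 from 20876003 to 20883602, with 8 for ab4729 alone among TSA lists, against 14, 23, 8 and 15 in the untreated lists in the same order, and chromosome 7 from 103846773 to 103849219, with 5 for ab4729 alone among TSA lists, against 10, 38, 5 and 20. At these 3 places the TSA signal of ab4729 was below that of its untreated partner, as was its median maximum signal over the whole list, 7 against 19. Signals were not scaled between libraries, so these values alone do not show a local difference. Those on chromosome 15 from 45876765 to 45881533 and chromosome 2 from 172377213 to 172381197 had 8 and 6 with TSA for ab4729 and no peak in the other TSA lists, against 22 and 24 untreated for ab4729. Of the 23 regions, 17 had a peak in at least 1 full TSA list, and 20 were in at least 1 of the 6 downsampled untreated lists, in a median of 2 of them. Of the 143 regions in 3 untreated lists, 83.9% were in at least 1 downsampled untreated list, and of the 34 regions in 3 TSA lists 64.7% were. Over all 19817 merged regions the share was 57.9%. The untreated regions were the wider ones, and the part of width in this difference was not tested.

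Strength was compared by rank percentile within lists of equal size, where 100 is the strongest peak. Of the 1162 regions in all 8 lists, 54 (4.65%) ranked higher with TSA in 4 of 4 pairs and 96 (8.26%) ranked lower in 4 of 4. Some regions would agree in direction over 4 pairs by chance alone, and neither share was tested against that. The largest difference upward shared by all 4 pairs was on chromosome 1 from 211803121 to 211807002, at rank percentiles of 40.5 for ab177178, 93.8 for ab4729, 43.9 for Diagenode at 1/100 and 56.5 at 1/50 with TSA, against 1.52, 63.0, 23.4 and 27.4 untreated. The largest difference downward shared by all 4 pairs was on chromosome 19 from 10857856 to 10864038, at 37.5, 5.87, 1.77 and 26.0 with TSA, against 92.0, 79.3, 31.2 and 76.7 untreated. Its maximum signal was 3, 5, 4 and 6 with TSA, against 16, 30, 6 and 24 untreated. On chromosome 5 from 176788814 to 176796698 the ranks were 24.7, 14.0, 57.6 and 33.9 with TSA, against 75.4, 92.5, 77.5 and 82.0 untreated, again lower in every pair. Regions with a lower rank were wider than those with a higher one, at medians of 7677 and 3931 bp.

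The rank differences were looked up against the 6 downsampled untreated lists, which had no part in choosing them, though the TSA lists are the same. Because the sets were chosen partly by their TSA ranks, a difference in the chosen direction is favoured in advance. The lookup is therefore a description and not a test. Regions ranked higher with TSA in 4 of 4 pairs had median differences of -1.25 to 2.88 points there, TSA minus untreated, with 43.6% to 59.6% of them higher. Those ranked lower had medians of -10.6 to 0.0499 points, with 26.2% to 51.4% higher. Over all regions in the 8 lists the medians were -3.94 to 0.30 points, with 36.8% to 52.7% higher. The lower-ranked regions fell outside that range of medians for ab177178, with medians of -4.73 points against the 11-cycle list and -10.6 against the 13-cycle list, where all regions had -0.17 and -2.09. For ab4729 they were at -3.59 and -2.07 points, where all regions had -3.94 and -2.70. The higher-ranked regions fell outside the range against the 13-cycle lists of ab4729, at 1.64 points where all regions had -2.70, and of Diagenode at 1/50, at 2.88 where all regions had 0.17. Inside the range, they were at -0.05 points against the 11-cycle list of ab4729, where all regions had -3.94. Against the 11-cycle list of Diagenode at 1/50 they were at -1.25, below the 0.30 of all regions.

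Strong regions of 1 arm in a single pair were mostly present elsewhere in both arms. For ab177178 the strongest TSA-only region, on chromosome 17 from 22020437 to 22021088, had a maximum signal of 403 for ab177178, 98 for ab4729, 62 for Diagenode at 1/100 and 423 at 1/50 with TSA, against 27, 161, 776 and 537 untreated. The strongest untreated-only region of ab177178, on chromosome 22 from 23255081 to 23278598, had no peak with TSA for ab177178 or Diagenode at 1/100, 18 for ab4729 and 4 for Diagenode at 1/50, against 31, 13, 5 and 8 untreated in the usual order. The strongest untreated-only region of ab4729 was on chromosome 6 from 170923346 to 170931477, with no TSA peak for ab4729 against a maximum signal of 63 untreated, and with 7 for ab177178 and 11 for Diagenode at 1/50 with TSA. For Diagenode at 1/100 the strongest TSA-only region was on chromosome 7 from 30952236 to 30957008, at 12 with TSA and 7 in the full untreated list. At 1/50 the strongest untreated-only region, on chromosome 5 from 17580667 to 17599535, had no TSA peak and 22 untreated for that pair, though the other 3 TSA lists had 6, 32 and 8, and it overlapped an H3K27me3 peak with a maximum signal of 144.

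Of 23 chromosomes, 1 took a larger share of peaks with TSA in 4 of 4 pairs and 1 a smaller share. Some chromosomes would agree in direction over 4 pairs by chance alone, and neither count was tested against that. Chromosome 6 held 7.51% of ab177178 peaks with TSA and 7.11% untreated, and 7.32% of ab4729 peaks with TSA and 6.40% untreated. Of Diagenode peaks it held 7.96% with TSA and 7.75% untreated at 1/100, and 7.92% with TSA and 7.38% untreated at 1/50. Chromosome 15 held less in every pair, by the widest margin for Diagenode at 1/100, with 2.13% of peaks with TSA and 2.82% untreated. Larger shifts were found in single pairs, and those given here were chosen after their values were seen. In the ab4729 pair chromosome 22 held 5.87% of peaks with TSA and 2.50% untreated, chromosome 17 held 1.98% with TSA and 4.42% untreated, and chromosome 19 held 3.17% with TSA and 6.26% untreated. In both Diagenode pairs chromosomes 17 and 19 held a larger share with TSA, opposite to ab4729. In the ab177178 pair chromosome 17 went the way of ab4729, with 3.94% with TSA and 4.28% untreated. Chromosome 19 there went the way of Diagenode, with 8.48% with TSA and 7.21% untreated. For ab177178, chromosome 22 held 2.81% with TSA and 7.43% untreated. Their part in the H3K27me3 difference of ab4729 was not tested. No gene was assigned to any region, because no gene annotation of hg19 was used here, and the K562 label was for the same reason not checked against marker genes.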

How the data were processed

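CUT&Tag peak lists of 8 H3K27ac libraries of K562 cells were analysed, with 1 H3K27me3 list and 6 untreated SDS lists at 11 and 13 cycles as references. The submitters' processing notes name hg19, SEACR and MACS2, with SAMtools 1.3.1, Picard 2.6.0, Bowtie2 2.2.9, bcl2fastq and Trim Galore 0.6.6, without role or order. Per the labels, duplicates were removed, and the lists at 11 and 13 cycles were downsampled first. No source used here gives the SEACR mode or threshold. The authors' SEACR lists hold total and maximum signal per peak, unscaled whole numbers. Their deposited MACS2 lists hold a score, a fold ratio, and −log10 p-values and q-values, of which none was used, only positions.

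Only chromosomes 1 to 22 and X were analysed, which left out 1.01% to 4.04% of a list. Within them no region was excluded for repeated sequence, and copy number was not corrected. Each pair was cut to equal size by total signal, with ties broken by maximum signal. Peaks overlapped when they shared 1 bp. Signals of different libraries were not compared as amounts of acetylation, and ranks were compared only between lists of equal length. Within-pair values were tested by exact two-sided sign-flip permutation of their mean, with Benjamini-Hochberg adjustment over 10 tests. No source used here says whether cultures were separate, and both Diagenode pairs share an antibody, so the pairs are not fully independent. The p-values reflect only how far pair values agree in sign and size. Wilson 95% intervals cover only the counting of peaks, not the error of reads within a peak or between libraries. Named regions were the top 5 by mean rank in all lists of 1 arm alone, the top 5 in each direction by the rank difference reached in all 4 pairs, and the strongest region of 1 arm in each pair. Only some are printed, and the ab4729 regions on H3K27me3 were chosen after their values were seen. The members and lists were chosen with earlier results of these data known. The alternatives were all sequences, ranking by maximum signal, other list sizes, merged peaks, 50% overlap, pairs left out and antibodies as the unit; the downsampled references and equal covered length were added after the data were seen. Overlap code was tested on simulated data and against bedtools 2.31.1. Scripts ran in Python 3.11.15 with scipy 1.17.1, pandas 2.3.3, matplotlib 3.10.9 and numpy 2.4.6.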

Additional observations from a re-analysis of the deposited data

Results flagged for a closer look

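The whole TSA list of ab4729, with 22808 peaks, stood apart from the other 3 TSA lists, its gap to the nearest being 0.859 of their range, past Dixon's 95% limit for 4 values. Chance flags about 1 in 20 groups, and the 4 lists differ in antibody and dilution.

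Signal outside chromosomes 1 to 22 and X was higher with TSA than in the untreated partner in several pairs. The mitochondrial share of peak signal was 33.2% with TSA and 1.47% untreated for ab177178, 2.88% with TSA and 2.09% untreated for ab4729, and 27.9% with TSA and 8.16% untreated for Diagenode at 1/50. For Diagenode at 1/100 it was the other way round, 6.53% with TSA and 35.6% untreated. The share on the remaining sequences was 7.77% with TSA and 5.34% untreated for ab177178, 10.3% with TSA and 1.53% untreated for ab4729, 3.76% with TSA and 3.74% untreated for Diagenode at 1/100, and 5.34% with TSA and 2.90% untreated for Diagenode at 1/50.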

How the results depend on the processing

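Width, covered length and peakedness kept their direction under every other list size, ranking and merging tried. The overlap rule does not enter them. With full lists the mean log2 ratio was -0.94 for width, -1.48 for covered length and -0.20 for peakedness. For Diagenode at 1/100 it was then -0.23 for width and -0.024 for peakedness. Against the untreated lists at 11 cycles the mean log2 ratio turned to 0.16 for covered length, 0.11 for width and 0.10 for peakedness, and against those at 13 cycles to 0.043 for peakedness, with -0.0014 left for covered length and -0.06 for width. Recovery by TSA minus recovery by another untreated list turned to 8.15 points with full lists and 1.48 points with 50% overlap. The H3K27me3 difference turned to -2.91 points at equal covered length. The recurrence differences turned to 16.1 points for TSA-only and -25.1 points for untreated-only peaks at equal covered length. Recovery of untreated peaks was 27.01% with 50% overlap and 76.8% at equal covered length. Regions in all TSA lists alone numbered 0 with full lists and 0 with 50% overlap, and those in all untreated lists alone 138 and 117. The causes were not tested.

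Leaving out each pair in turn gave mean log2 ratios of -0.99 to -0.32 for peak number, -1.34 to -1.03 for covered length, -1.37 to -1.05 for width and -0.29 to -0.21 for peakedness. It gave 49.0% to 58.1% for recovery, -8.93 to -1.72 points for recovery against other untreated lists, -2.08 to 3.16 for H3K27me3, 2.86 to 11.8 for signal in the strongest peaks and 7.26 to 14.3 for clustering. Recurrence was -14.8 to -10.6 points for TSA-only and 5.17 to 10.5 for untreated-only peaks. With the 3 antibodies as the unit, the mean log2 ratio was -1.21 for width, -1.19 for covered length and -0.25 for peakedness. Each had an exact permutation p of 0.25, the lowest that 3 antibodies allow. All tests were paired by antibody and dilution, and no block by replicate number was possible because the labels carry none. Low coverage limits the lists, since the middle TSA peak has a maximum signal of 5 to 7.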
